A study of Mus musculus with 133 samples.

Results

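Hepatocyte gene expression was compared between 96 h (labelled 4 days) and 52 h after a sham operation in C57BL/6 mice, that is, after a midline incision of the abdomen under inhalation anesthesia that was closed with no liver removed. The comparison used 36 of the 133 libraries of the series, 18 at each time, and all genes. They came from 6 groups named by age and sex: young (11 to 14 weeks), old (60 weeks) and very old (100 weeks) females (YF, OF, VOF) and males (YM, OM, VOM), each with 3 libraries at each time. 8 further sham libraries whose names carry the mark X were left out, since 3 unmarked libraries remained in each group. Hepatocytes were obtained by collagenase digestion and low-speed centrifugation, so RNA of other liver cells can be present. The labels do not say whether libraries came from separate mice, so p-values measure the spread between these libraries. As background, 18 libraries of unoperated mice (NL, 3 per group) are given. Another operation at the same times, partial hepatectomy (PH, removal of the left and median lobes; 36 libraries), served as a comparison and shares no library with the sham groups.

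Opening the abdomen sets off the acute-phase response, in which cytokines from wounded tissue and from the macrophages of the liver make hepatocytes secrete defense and transport proteins such as serum amyloid A and haptoglobin. Because hepatocytes secrete so much protein, such a load also bears on the endoplasmic reticulum, where the unfolded protein response adjusts the supply of chaperones. Hepatocytes also follow the daily clock. Operations took place in the morning, and for an operation at the same hour 52 h falls 4 h later in the day than 96 h, so time after surgery and time of day cannot be told apart here.

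All 12 measured hepatocyte marker genes were present, with a summed level of 16996 to 39664 CPM (counts adjusted for library size by TMM factors, the unit of every level given) at 52 h and 24806 to 39369 CPM at 96 h. Total counts ranged from 663665 to 5311112 at 52 h and from 465547 to 3253199 at 96 h. The 3 VOM libraries at 52 h stood apart. In them, 36 genes that reached at most 152 CPM in any other library held 57.0% to 61.7% of all counts, against at most 0.0722% in any other library. Results are therefore given with all 36 libraries and again without VOM (30 libraries). The libraries were also spread over 15 numbered mixes, as the library names give them, of which 5 held both times (15 libraries). With mix as a covariate 1 gene passed (Pklr), and 531 genes had an unadjusted p under 0.05 against 2235 without it. Of the 890 genes that passed without mix, 862 (96.9%) kept their sign with it, against 71.5% of all genes tested, while the median standard error of the 890 rose from 0.121 to 0.214 on the log2 scale. The same libraries enter both fits, so this share is no independent check. Mix and time can be told apart only in part. The NL libraries came from other mixes than the 36 sham libraries. Differences in level between NL and sham libraries can therefore not be told apart from mix.

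Time after surgery was tested with edgeR's quasi-likelihood test with the group as a blocking factor. A gene passed at a Benjamini-Hochberg adjusted p under 0.1 over the 11047 genes tested, and all adjusted p values are from this test. With all libraries, 393 genes rose (3.56%) and 497 fell (4.5%) from 52 h to 96 h. With a fold change of at least 2 as well (DEGs), 34 were higher (0.308%) and 62 lower (0.561%). 17 of the 62 belonged to the 36 genes of the VOM libraries at 52 h. Without VOM, 326 genes rose (2.95%), 317 fell (2.87%), and 37 and 26 were DEGs. 426 genes passed both ways and 39 were DEGs both ways. The median log2 fold change of all genes was -0.01.

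**Figure D1:**
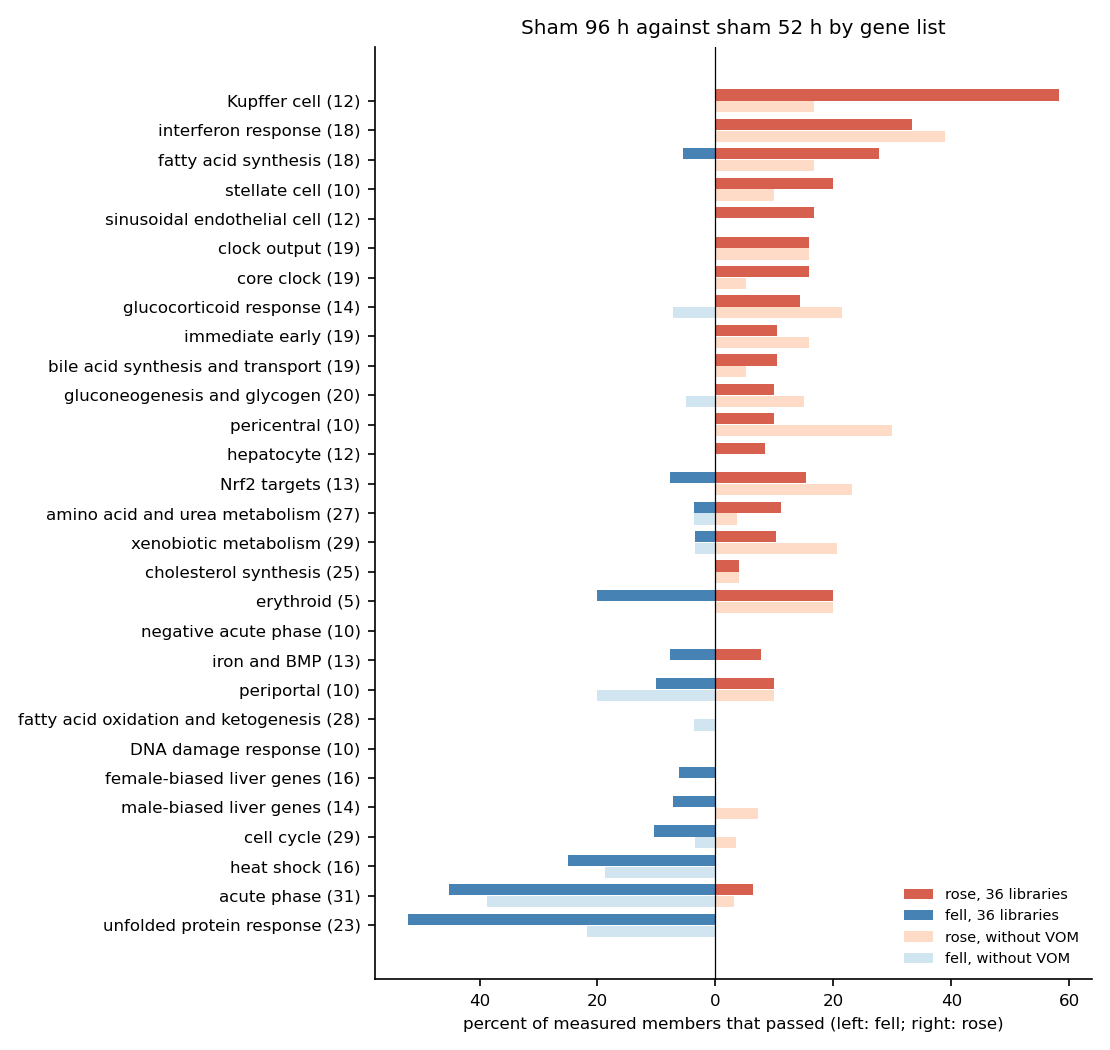
Percent of the measured members of each gene list that passed between sham 96 h and sham 52 h. Bars to the right stand for members that rose and bars to the left for members that fell; dark bars use 36 libraries, pale bars 30 libraries without VOM, and the number of measured members is in parentheses. The unfolded protein response (12 of 23) and the acute phase (14 of 31) had the largest shares that fell, and the Kupffer cell (7 of 12) and interferon response (6 of 18) lists the largest shares that rose with all libraries. Of all genes tested 4.5% fell and 3.56% rose.

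Of 31 measured acute-phase genes 14 fell and 2 rose from 52 h to 96 h, against 4.5% and 3.56% of all genes tested. The median log2 fold change of the 31 was -0.14. Without VOM 12 fell and 1 rose (median -0.25), and with mix as a covariate all 16 that had passed kept their sign. The serum amyloid A genes Saa1 and Saa2 encode lipoprotein-bound proteins that are among the most inducible in liver. Saa2 (chr7:46751790-46754313, plus strand, GRCm38) ran from 584 to 6286 CPM (median 2195) at 52 h and from 226 to 6188 CPM (median 584) at 96 h. 9 of 18 libraries at 96 h lay below every library at 52 h, and 15 lay below the median at 52 h. Saa2 was 3.34-fold lower at 96 h (log2 fold change -1.74 ± 0.31 (SE), adjusted p = 8.15e-04). Without VOM the log2 fold change was -1.77 (adjusted p = 0.00419), and with mix -2.12 ± 0.57 (SE, adjusted p = 0.421). NL libraries, all from other mixes, ran from 0.684 to 1512 CPM (median 81.2), and all 18 libraries at 96 h lay above the NL median.

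The 3 VOF libraries at 96 h were the exception. Their Saa2 levels of 6188, 2382 and 4496 CPM overlapped those at 52 h (1540.2, 5938 and 4393 CPM). The mixes of these VOF libraries at 96 h held no sham library at 52 h, so in VOF time and mix cannot be told apart. In the other 5 groups the mean fell, for example from 3057 to 497 CPM in OF and from 3514 to 744 CPM in YM. The within-group log2 fold change was -2.62 (adjusted p = 0.0453) in OF, -2.24 (adjusted p = 0.0769) in YM and 0.14 (adjusted p = 0.913) in VOF. The difference of the very old from the young was 1.20 (adjusted p = 0.271) and did not pass.

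Saa1, named here after its values were seen, ran from 1319 to 8582 CPM (median 3554) at 52 h and from 489.9 to 8014 CPM (median 1345) at 96 h. Saa1 was 2.45-fold lower (log2 fold change -1.29, adjusted p = 0.00108), again with VOF as the only group with a higher mean at 96 h. Saa1 and Saa2 are close copies, so how their reads were divided is uncertain. Lcn2, also named after its values were seen, encodes lipocalin 2, which binds bacterial iron carriers. It ran from 463 to 3843 CPM (median 1459) at 52 h and from 157 to 5599.5 CPM (median 446) at 96 h and was 2.28-fold lower (log2 fold change -1.19, adjusted p = 0.00596). Its VOF mean rose from 2062 to 3524 CPM while the means of the other 5 groups fell.

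Smaller changes were more even over the groups. Apcs, encoding serum amyloid P, Serpina10, encoding an inhibitor of clotting factor X, and Serpina3n, a protease inhibitor, each had a lower mean at 96 h in all 6 groups. Serpina10 ran from 265 to 662 CPM (median 372) at 52 h and from 165 to 476 CPM (median 222) at 96 h. 14 of 18 libraries at 96 h lay below every library at 52 h (log2 fold change -0.65 ± 0.09 (SE), adjusted p = 6.61e-05). Apcs had medians of 202 and 114 CPM (log2 fold change -0.91, adjusted p = 2.91e-04) and Serpina3n of 614 and 381 CPM (log2 fold change -0.72, adjusted p = 6.35e-04). Without VOM all 3 passed, with log2 fold changes of -0.55 (adjusted p = 8.59e-04), -0.92 (adjusted p = 0.00235) and -0.70 (adjusted p = 0.00689). Of the other members that fell, Hp (haptoglobin, which binds free hemoglobin), Orm1 and Orm2 (orosomucoids), Saa4, Itih3 and Itih4 had log2 fold changes from -0.81 (Saa4) to -0.30 (Itih3). Lbp and Steap4 fell with all libraries and did not pass without VOM. The 2 members that rose were Cd14, a macrophage receptor for bacterial lipid (log2 fold change 1.15, medians 1.86 and 4.45 CPM), and Hamp2, a paralog of hepcidin (0.74). Cd14 passed without VOM (adjusted p = 0.0762), and Hamp2 did not (adjusted p = 0.302).

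In 3 age and sex groups libraries of both times shared a mix, with 3 libraries at 52 h and 5 at 96 h in all (OF in mix 22, OM in mix 20, YM in mix 21). Within them, 12 of the 14 acute-phase genes that fell had the lower mean at 96 h in all 3. Saa2 was at 2069 CPM at 52 h and 657 CPM at 96 h in OF. In OM it was at 1747 CPM against 739 and 231 CPM, and in YM at 1781 CPM against 639 and 429 CPM. These libraries are part of the 36 in which the genes passed, so a shared sign in them is no independent check, here and for the lists below. No separate test was made of them.

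**Figure D2:**
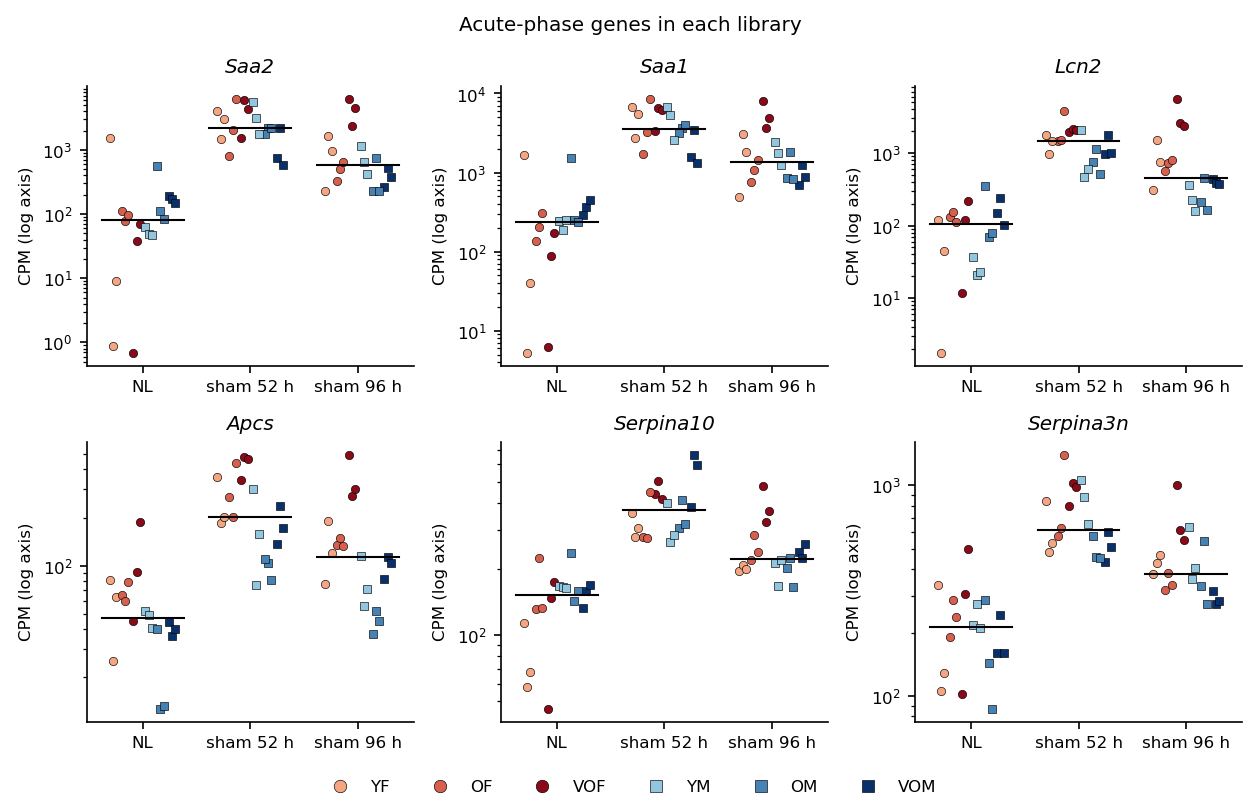
Levels of 6 acute-phase genes in CPM, on a log axis, in each library of NL and of sham mice at 52 h and 96 h. Each point is a library, colored by age and sex group, and each line is the median of 18 libraries. Medians fell from 52 h to 96 h in all 6 panels (Saa2, 2195 to 584 CPM), and the VOF points at 96 h of Saa2, Saa1 and Lcn2 lie with those at 52 h.

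After PH the same 2 times gave another result for several of these genes. The PH log2 fold change of Saa2 was -0.0046 (adjusted p = 0.994), and the sham change minus the PH change was -1.73 (adjusted p = 0.00588), or -2.16 (adjusted p = 0.00117) without VOM. PH libraries ran from 1128 to 6780.5 CPM (median 3610.1) at 52 h and from 666 to 8728 CPM (median 2395) at 96 h. The difference between the operations also passed for Saa1 (-1.26, adjusted p = 0.00725) and Lcn2 (-1.11, adjusted p = 0.0172), and 9 of the 31 members passed it in all. Over all genes tested the change was higher after sham surgery for 8% and lower for 11%, and 0.95% and 1.91% also differed at least 2-fold. For Serpina3n the PH change of -0.64 (adjusted p = 0.00189) gave a difference that did not pass (-0.07, adjusted p = 0.888).

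Of 23 measured genes of the unfolded protein response 12 fell and 0 rose (1 member was higher and 15 lower at an unadjusted p under 0.05, and DESeq2 called 11 lower and 0 higher), with a median log2 fold change of -0.33. Without VOM 5 fell: Hsp90b1, Dnajb11, Pdia6, Sel1l and Pdia3 (median -0.29). Of all genes tested 4.5% fell, or 2.87% without VOM. With mix as a covariate 11 of the 12 kept their sign and the median was -0.12, and 4 of the 12 were lower at 96 h in all 3 pairs within a mix. Hsp90b1 encodes the chaperone GRP94 of the endoplasmic reticulum. It ran from 136 to 304 CPM (median 213) at 52 h and from 94.8 to 215 CPM (median 153) at 96 h, and 16 of 18 libraries at 96 h lay below the median at 52 h (log2 fold change -0.43 ± 0.09 (SE), adjusted p = 0.00349). Pdia6, a disulfide isomerase, ran from 936 to 2073 CPM (median 1371) at 52 h and from 721 to 1406 CPM (median 1019) at 96 h, with a lower mean at 96 h in all 6 groups (log2 fold change -0.36 ± 0.09 (SE), adjusted p = 0.0104). Dnajb11, a co-chaperone, had a log2 fold change of -0.43, and Sel1l, of the complex that removes misfolded proteins, of -0.31. The members with the largest changes, Asns (asparagine synthetase) and Ddit3 (the transcription factor CHOP), were low, with medians at 52 h of 0.747 and 6.29 CPM, and neither passed without VOM.

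Derl3, which encodes a membrane protein of the route that clears misfolded proteins from the endoplasmic reticulum, was no member of the list and had the largest fall among the genes named by the rule on DEGs. It lies at chr10:75893413-75895941, plus strand. Derl3 ran from 6.5 to 103 CPM (median 20.5) at 52 h and from 1.41 to 22 CPM (median 7.04) at 96 h, and 17 of 18 libraries at 96 h lay below the median at 52 h. The group means were lower at 96 h in all 6 groups, from 31 to 6.34 CPM in OF and from 74.3 to 13 CPM in VOM. Derl3 was 2.82-fold lower (log2 fold change -1.50 ± 0.29 (SE), adjusted p = 0.00157), -1.23 (adjusted p = 0.0249) on the log2 scale without VOM and -1.37 ± 0.43 (SE, adjusted p = 0.617) with mix.

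The promoters of several of these genes hold the endoplasmic reticulum stress element (ERSE), a motif bound by factors of this response. The motif was searched as CCAAT and CCACG with any 9 bases between them on both strands of RefSeq promoters (GRCm38.p6, 250 bases before to 50 after the start). It was found for 37 of 27025 genes (0.137%). 21 of the 23 members had a promoter, and 7 of them held it. 5 of these 7 fell (Hsp90b1, Pdia6, Creld2, Dnajc3 and Syvn1) and 2 did not pass (Hspa5 and Calr), while 11 of all 21 fell. Derl3, no member of the list, was added to the search and held the motif too. Whether the motif goes with the fall was not tested. The windows that hold the motif are shown with the motif in capitals, read along the gene; a motif on the opposite strand begins with the letters CGTGG.
Derl3 (chr10:75893238-75893264, gene on the plus strand): ctacCGTGGGACTTCCCCATTGGctag
Hsp90b1 (chr10:86705634-86705660, gene on the minus strand): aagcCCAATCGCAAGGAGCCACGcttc
Hsp90b1 (chr10:86705529-86705555, gene on the minus strand): agtgCGTGGTGAGGCACGATTGGtgag
Pdia6 (chr12:17266487-17266513, gene on the plus strand): gagaCCAATGAAAGGCGGCCACGgcgt
Creld2 (chr15:88819516-88819542, gene on the plus strand): ttctCGTGGCGAGCCTCAATTGGtcca
Dnajc3 (chr14:118937823-118937849, gene on the plus strand): acaaCCAATCAGCGCCAACCACGaccc
Syvn1 (chr19:6046528-6046554, gene on the plus strand): gcaaCCAATCGGCGGTAGCCACGggaa
Hspa5 (chr2:34772021-34772047, gene on the plus strand): ttcaCCAATCGGAGGCCTCCACGacgg
Calr (chr8:84847071-84847097, gene on the minus strand): aacgCGTGGTCGACCCTCATTGGccca
Hspa5, which encodes the chaperone BiP, had a log2 fold change of -0.26 (adjusted p = 0.157), and Calr (calreticulin) of -0.15 (adjusted p = 0.335). A match of letters is a description of the sequence and not of binding.

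**Figure D3:**
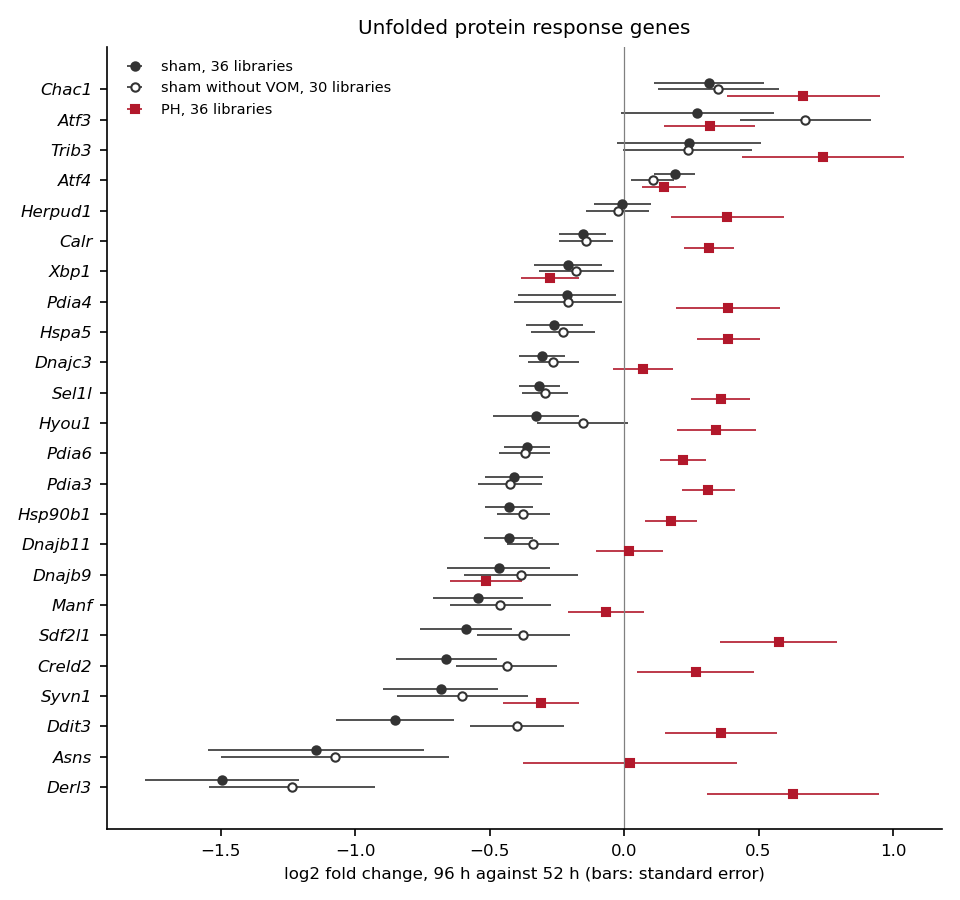
Log2 fold change of 96 h against 52 h for the 23 measured unfolded protein response genes and Derl3. Filled circles are sham mice (36 libraries), open circles sham mice without VOM (30), red squares PH mice (36), and bars are standard errors. Most sham values lie below 0 (Derl3, -1.50) and most PH values above it (Derl3, 0.63).

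After PH the median log2 fold change of the 23 genes was 0.31, against -0.33 after sham surgery. 9 of the 23 rose and 3 fell from PH 52 h to PH 96 h (18.9% and 19.1% of the 11048 genes tested rose and fell, 2.31% and 2.44% as DEGs). For 12 of 23 the change differed between the operations (8% of all genes were higher and 11% lower after sham surgery). The difference was -0.59 (adjusted p = 0.00101) for Hsp90b1, -0.57 (adjusted p = 4.94e-04) for Pdia6, -0.67 (adjusted p = 2.70e-04) for Sel1l and -2.11 (adjusted p = 5.22e-04) for Derl3. Derl3 itself did not pass after PH (0.63, adjusted p = 0.135). Cytosolic heat shock genes showed less. 4 of 16 fell after sham surgery and 0 rose (0 members were higher at an unadjusted p under 0.05, and DESeq2 called 0 higher and 4 lower): Hsp90aa1, Hsph1, Dnajb1 and the inducible Hspa1b, with 3 of them falling without VOM. Among all genes tested 4.5% fell after sham surgery, or 2.87% without VOM. In all 3 pairs within a mix, 2 of these 4 heat shock genes were lower at 96 h. Hsp90aa1 ran from 166 to 493 CPM (median 287) at 52 h and from 70.7 to 346 CPM (median 202) at 96 h (log2 fold change -0.46, adjusted p = 0.00238). Hspa1b had medians of 67.9 and 41 CPM (log2 fold change -0.75, adjusted p = 0.0268).

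The MHC class II genes H2-Aa and H2-Ab1 and 6 of 18 interferon response genes rose from 52 h to 96 h (3.56% of all genes tested rose). No list of antigen presentation genes was tested. The MHC class II chains H2-Aa and H2-Ab1 present peptides on macrophages, dendritic cells and B cells, and are not hepatocyte genes. H2-Aa (chr17:34282744-34287823, minus strand) ran from 5.84 to 61.2 CPM (median 37.1) at 52 h and from 21.3 to 226 CPM (median 74.8) at 96 h. 11 of 18 libraries at 96 h lay above every library at 52 h, and the mean was higher in all 6 groups (log2 fold change 1.34 ± 0.25 (SE), adjusted p = 0.00141). Without VOM the log2 fold change was 0.95 (adjusted p = 0.00503), and with mix 0.72 ± 0.32 (SE, adjusted p = 0.99). H2-Ab1 ran from 4.47 to 52.1 CPM (median 32) at 52 h and from 16.4 to 166 CPM (median 50.6) at 96 h (log2 fold change 1.20 ± 0.25 (SE), adjusted p = 0.00376, or 0.84 (adjusted p = 0.0136) without VOM). NL libraries held 8.53 to 189 CPM (median 57.5) of H2-Aa and 16 to 179 CPM (median 63.1) of H2-Ab1, so the levels at 96 h overlapped those of unoperated mice.

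H2-Aa and H2-Ab1 rose more in the very old than in the young with all libraries. The mean of H2-Aa went from 37.4 to 148 CPM in VOF and from 5.98 to 110.0 CPM in VOM. In the young it went from 46.9 to 83.7 CPM in YF and from 30.2 to 59.1 CPM in YM, and in the old from 47.3 to 52.9 CPM in OF and from 34.3 to 51.8 CPM in OM. The very old minus young difference in log2 fold change passed for H2-Ab1 (2.66, adjusted p = 2.05e-05) and for H2-Aa (2.18, adjusted p = 0.0018). In females alone it was 1.93 (adjusted p = 0.00854) for H2-Ab1 and 1.09 (adjusted p = 0.221) for H2-Aa, which did not pass there. That difference is VOF minus YF, groups in which time and mix cannot be told apart. Cd74, the chaperone of class II chains, and H2-Eb1, both named after their values were seen, had log2 fold changes of 1.20 and 1.17, and their OF means fell. Ly6a, an interferon-inducible surface protein, ran from 4.28 to 45.3 CPM (median 19.1) at 52 h and from 13.9 to 111 CPM (median 38.4) at 96 h, with a higher mean in all 6 groups (log2 fold change 1.17, adjusted p = 1.12e-04; without VOM 1.07, adjusted p = 7.57e-04).

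Markers of Kupffer cells, the macrophages of liver, moved in the same direction. 7 of 12 rose (C1qa, C1qc, Vsig4, Clec4f, Adgre1, Csf1r and C1qb), all 12 had a positive log2 fold change, and 2 rose without VOM (Clec4f and C1qb). Only 2 of the 7 were higher at 96 h in all 3 pairs within a mix. Their summed level ran from 421 to 978 CPM (median 583) at 52 h and from 363 to 1874 CPM (median 865) at 96 h, against 276 to 2278 CPM (median 602) in NL. Clec4f, which is specific to Kupffer cells, had medians of 115 and 158 CPM (log2 fold change 0.43, adjusted p = 0.0559), and C1qb, of complement, 157 and 201 CPM (log2 fold change 0.41, adjusted p = 0.0877). More such cells and more RNA per cell cannot be told apart in these libraries, and the part of these cells in the rise of the class II genes was not tested. Of 12 markers of sinusoidal endothelial cells Ptprb and Cdh5 rose, and neither passed without VOM. Of 10 markers of stellate cells Ecm1 and Dcn rose, and Ecm1 passed without VOM. Over all genes tested 3.56% rose. Only 1 of 8 lymphocyte markers and no neutrophil marker were in the table.

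The interferon response list had 6 of 18 measured members that rose and 0 that fell (0 members were lower at an unadjusted p under 0.05 and 0 by DESeq2), and 7 that rose without VOM. Among all genes tested 3.56% rose, or 2.95% without VOM. Ifit1, which binds foreign RNA, ran from 13.6 to 43.1 CPM (median 27.2) at 52 h and from 25.2 to 139 CPM (median 43) at 96 h, and 17 of 18 libraries at 96 h exceeded the median at 52 h (log2 fold change 0.76 ± 0.12 (SE), adjusted p = 1.82e-04; without VOM 0.76, adjusted p = 0.00138). Oasl2, of the oligoadenylate synthetase family, had medians of 4.13 and 8.81 CPM (log2 fold change 1.07, adjusted p = 0.00137). Irf7, the transcription factor that amplifies interferon production, had medians of 7.7 and 11.7 CPM (log2 fold change 0.78, adjusted p = 0.00188), and Gbp2, a guanylate-binding protein, of 9.13 and 14 CPM (log2 fold change 0.73, adjusted p = 0.00273). All 6 kept their sign with mix, and 4 of the 6 were higher in all 3 pairs within a mix, though the same libraries enter these comparisons. With mix the log2 fold change of Ifit1 was 0.40 ± 0.21 (SE, adjusted p = 1).

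After PH all 18 members rose (18.9% of all genes tested rose), with a median log2 fold change of 1.73 against 0.27 after sham surgery. For 17 of 18 the change differed between the operations (8% of all genes were higher and 11% lower after sham surgery). For Ifit1 the PH change was 3.29 (adjusted p = 2.22e-08) and the difference -2.54 (adjusted p = 1.24e-06), or -1.85 (adjusted p = 1.24e-05) without VOM. Ifit1 reached 809 CPM in a PH library at 96 h and 139 CPM in the highest sham library. For H2-Aa the difference between the operations did not pass (-0.11, adjusted p = 0.924), with a PH change of 1.45 (adjusted p = 2.36e-04). A core of the interferon-stimulated response element, GAAA repeated after any 2 bases on either strand, was found in the promoters of 8 of the 14 members with a promoter and of 3.99% of 27025 genes. 4 of the 8 rose (Ifit1, Ifit3, Rsad2 and Gbp2), while 6 of all 14 rose. The windows of those 4 are shown because they rose, again with the motif in capitals.
Ifit1 (chr19:34640781-34640798, gene on the plus strand): tcagTTTCACTTTCcagt
Ifit1 (chr19:34640800-34640817, gene on the plus strand): tcagTTTCAGTTTCtcac
Ifit3 (chr19:34583369-34583386, gene on the plus strand): taagTTTCACTTTCctct
Ifit3 (chr19:34583403-34583420, gene on the plus strand): tctgTTTCAGTTTCtact
Rsad2 (chr12:26456559-26456576, gene on the minus strand): caacTTTCATTTTCagaa
Gbp2 (chr3:142620600-142620617, gene on the plus strand): ttagTTTCACTTTCactg
All of these matches lie on the strand opposite to the gene, while those of the 4 holders that did not pass (Isg15, Bst2, Igtp and Irgm1) lie on the same strand as the gene. Whether the motif or its strand goes with the rise was not tested. A core of the NF-kB motif, GGG and TTTCC with any 2 bases between them on either strand, was found for 3 of the 26 acute-phase members with a promoter (Serpina3n, Steap4 and Il1rn) and for 1.89% of all genes.

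Metabolic genes changed in part. Of 18 fatty acid synthesis genes 5 rose and 1 fell, against 3.56% and 4.5% of all genes tested. Without VOM Pklr, Fasn and Acaca rose, against 2.95% of all genes. Pklr encodes the pyruvate kinase of liver, which supplies carbon for fat synthesis. It ran from 9.54 to 43.7 CPM (median 20.9) at 52 h and from 21.6 to 54.8 CPM (median 34.4) at 96 h, all 18 libraries at 96 h lay above the median at 52 h, and the mean was higher in all 6 groups (log2 fold change 0.81 ± 0.13 (SE), adjusted p = 1.82e-04). Pklr was the gene that passed with mix as a covariate (1.32 ± 0.20, SE, adjusted p = 0.0122). Fasn, fatty acid synthase, had medians of 106 and 151 CPM and a higher mean in all 6 groups (log2 fold change 0.60, adjusted p = 0.00533). Me1 (malic enzyme, 0.51), Scd1 (stearoyl-CoA desaturase, 0.76) and Acss2 (acetyl-CoA synthetase, 0.47) rose too on the log2 scale. All 5 were higher in all 3 pairs within a mix, whose libraries are part of those in which the genes passed. Me1, Scd1 and Acss2 did not pass without VOM. Mlxipl, the carbohydrate-response factor, fell by 0.35 on the log2 scale (adjusted p = 0.0504) and did not pass without VOM. NL libraries ran from 76.5 to 943 CPM (median 255) for Fasn and from 17.5 to 95.5 CPM (median 35.2) for Pklr.

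With all libraries 0 of 28 fatty acid oxidation and ketogenesis genes passed by edgeR (with 1 lower at an unadjusted p under 0.05 and 0 by DESeq2). Of 25 cholesterol synthesis genes 1 rose (Hsd17b7), and 20 of 25 had a positive log2 fold change (median 0.17). Of 29 xenobiotic metabolism genes 3 rose (Cyp1a2, Gstm2 and Cyp2f2) and 1 fell (Cyp3a13), and without VOM 6 rose and 1 fell. Over all genes tested 3.56% rose and 4.5% fell, or 2.95% and 2.87% without VOM. Cyp1a2, a cytochrome P450 of the pericentral zone, ran from 507 to 1678 CPM (median 955) at 52 h and from 932 to 2097 CPM (median 1404) at 96 h with a higher mean in all 6 groups (log2 fold change 0.51, adjusted p = 0.0065; with mix 0.86 ± 0.20, SE, adjusted p = 0.372). Cyp3a13 had the lower mean at 96 h in all 6 groups, with medians of 440.3 and 313 CPM (log2 fold change -0.44, adjusted p = 0.00213), and its change differed from that after PH (-0.64, adjusted p = 2.27e-04). Gstm1, a glutathione transferase and a target of the factor Nrf2, ran from 944 to 1750.0 CPM (median 1250.1) at 52 h and from 1406 to 2277 CPM (median 1834) at 96 h. All 18 libraries at 96 h lay above the median at 52 h (log2 fold change 0.54 ± 0.09 (SE), adjusted p = 2.14e-04), and NL libraries ran from 1519.8 to 4095 CPM (median 2373). Its rise after PH was larger (1.56 (adjusted p = 4.81e-07); difference -1.02 (adjusted p = 8.18e-04)). Gstm1, Gstm2 and Gstm3 are close paralogs, so their separation is uncertain.

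In the other metabolic lists few members passed, beside 3.56% of all genes tested that rose and 4.5% that fell. 2 of 19 bile acid genes rose: Baat, which joins bile acids to taurine and glycine (log2 fold change 0.35, adjusted p = 0.00862), and Slc10a1, the bile acid uptake carrier. 2 of 20 genes of gluconeogenesis and glycogen rose: Slc2a2, the glucose carrier of hepatocytes (log2 fold change 0.44, adjusted p = 0.017), and Pygl, liver glycogen phosphorylase. Of 27 genes of amino acid and urea metabolism, Gpt2, Cps1 and Asl rose and Asns fell. Without VOM Gpt2, Cps1 and Asl had log2 fold changes of 0.18 (adjusted p = 0.228), 0.19 (adjusted p = 0.302) and 0.15 (adjusted p = 0.499) and did not pass. 0 of 10 negative acute-phase genes passed (3 were higher at an unadjusted p under 0.05, and 0 by DESeq2). 2 of 19 immediate early genes rose, Jun and Dusp1, and 3 without VOM. Among 14 glucocorticoid response genes Dusp1 and Cdkn1a rose, and 0 of 10 DNA damage genes passed (0 at an unadjusted p under 0.05 and 0 by DESeq2).

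Core clock genes differed little between the times over all groups. Of 19 members 3 rose and 0 fell (0 members were lower at an unadjusted p under 0.05 and 0 by DESeq2), and 1 rose without VOM. Over all genes tested 3.56% rose, or 2.95% without VOM. Npas2, the partner of the factor BMAL1, ran from 0 to 3.58 CPM (median 0.601) at 52 h and from 0 to 19.5 CPM (median 4.84) at 96 h. 9 of 18 libraries at 96 h lay above every library at 52 h, and the 3 group means with the largest rises were those of females, to 6.97 CPM in YF, 12.1 CPM in OF and 10.7 CPM in VOF (log2 fold change 2.28 ± 0.49 (SE), adjusted p = 0.00478; without VOM 2.41, adjusted p = 0.0117). With mix its change was 1.15 ± 0.85 (SE, adjusted p = 1). After PH Npas2 did not pass (-0.24, adjusted p = 0.708), and the operations differed (2.52, adjusted p = 0.00887). Bhlhe41 (log2 fold change 0.99, adjusted p = 0.0382) and Cry2 (log2 fold change 0.32, adjusted p = 0.0854), both repressors, also rose, and neither passed without VOM. Arntl, which encodes BMAL1, had a log2 fold change of -0.15 (adjusted p = 0.897) at medians of 1.39 and 1.25 CPM.

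Several clock genes that did not pass over all groups differed between the sexes. Log2 fold changes within groups were -1.37 (adjusted p = 0.252) in YF, -1.55 (adjusted p = 0.0628) in VOF and 1.91 (adjusted p = 0.0482) in YM for Per2, a repressor of the clock. For Ciart, another repressor, they were -2.44 (adjusted p = 0.0635) in VOF and 3.44 (adjusted p = 0.014) in VOM. Females minus males, the difference was -1.92 for Per2 (adjusted p = 0.0107), -2.74 for Ciart (0.0107), -1.88 for Dbp (0.0168) and -1.22 for Tef (0.00772), the last 2 being clock-driven activators. Nfil3, which opposes them at the same sites, had a difference of 1.25 (0.00708). With young and old groups only, the values kept their sign, from -1.74 (adjusted p = 0.144) for Per2 to 1.25 (adjusted p = 0.11) for Nfil3, and none of these 5 passed in that fit. After PH 7 of the 19 rose and 4 fell, against 18.9% and 19.1% of all genes tested. For 7 the change differed between the operations, among them Tef (-0.87, adjusted p = 0.0176), Nr1d2 (-0.66, adjusted p = 0.0151) and Cry1 (0.84, adjusted p = 0.0218). Over all genes tested the change was higher after sham surgery for 8% and lower for 11%.

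**Figure D4:**
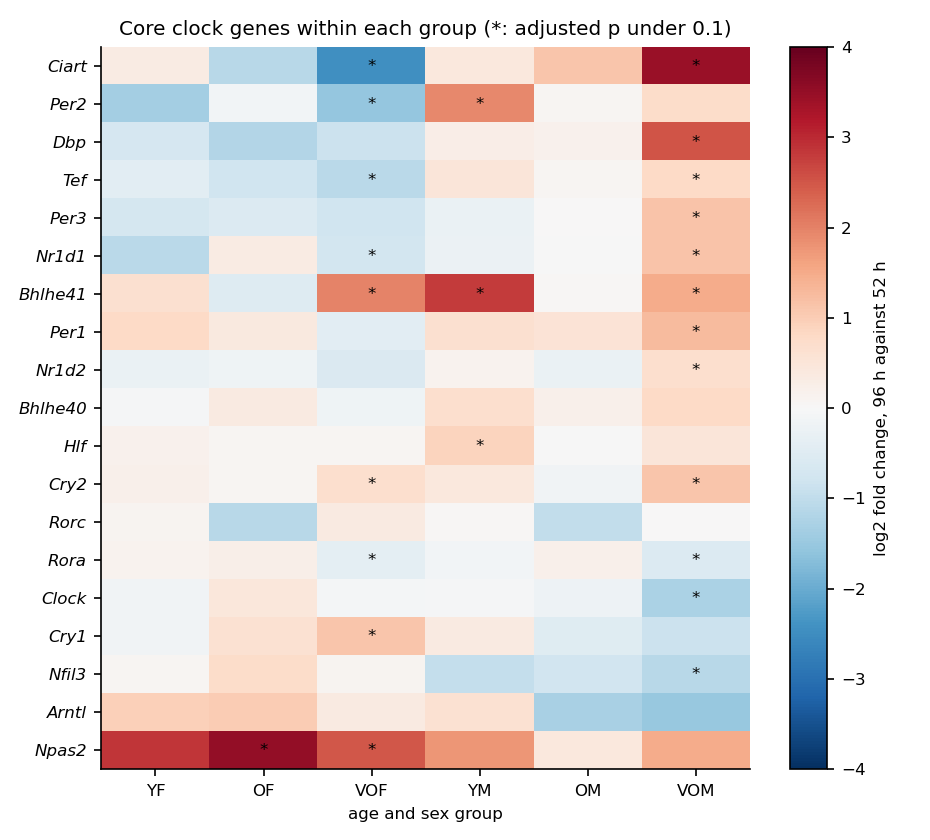
Log2 fold change of sham 96 h against sham 52 h for the 19 core clock genes (rows, ordered by the difference between females and males) within each age and sex group (columns). Red is higher and blue lower at 96 h on a scale from -4 to 4, and an asterisk marks an adjusted p under 0.1 within that group. Ciart, Per2, Dbp and Tef at the top are mostly blue in females and red in males (Ciart, -2.44 in VOF and 3.44 in VOM), and Npas2 in the last row is red throughout.

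Of 29 cell cycle genes 3 fell in sham mice (Mki67, Aurkb and E2f1), and without VOM Aurkb alone fell and Ccnd1 rose. Over all genes tested 4.5% fell, or 2.87% without VOM. Aurkb was near the floor, with 1 library at 96 h above the median at 52 h and 0 below it. In the 3 pairs within a mix it reached at most 0.894 CPM at 52 h and was at 0 in all 5 libraries at 96 h. Mki67, a marker of cycling cells, ran from 0 to 21.7 CPM (median 5.9) at 52 h and from 0 to 8.66 CPM (median 3.66) at 96 h (log2 fold change -1.01, adjusted p = 0.0125; without VOM -0.84, adjusted p = 0.108). E2f1 had a log2 fold change of -0.72 with VOM and -0.0021 (adjusted p = 0.997) without. PH libraries at 52 h had a median of 86.1 CPM of Mki67, and 24 of the 29 members fell after PH, against 19.1% of all genes tested. For Ccnd1, the cyclin of entry into the cycle, the operations differed (1.08, adjusted p = 2.55e-04), with a change of 0.38 (adjusted p = 0.119) after sham surgery and of -0.70 (adjusted p = 6.02e-04) after PH.

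Other DEGs had a lower mean at 96 h in all 6 groups. Isyna1, which makes inositol phosphate from glucose phosphate, ran from 29.1 to 393 CPM (median 101) at 52 h and from 20.5 to 305 CPM (median 37.9) at 96 h (log2 fold change -1.35 ± 0.23 (SE), adjusted p = 6.35e-04; without VOM -1.02, adjusted p = 0.00956). NL libraries ran from 0.874 to 50.7 CPM (median 15.6). Gas6, a ligand of receptors that serve the uptake of dying cells, ran from 11.9 to 98.8 CPM (median 45.8) at 52 h and from 4.52 to 60.1 CPM (median 22.6) at 96 h (log2 fold change -1.05 ± 0.16 (SE), adjusted p = 1.12e-04; without VOM -0.85, adjusted p = 0.0034 and -1.06 ± 0.27 (SE, adjusted p = 0.416) with mix). For both the sham change differed from the PH change, by -1.67 (adjusted p = 0.00325) for Isyna1 and -1.13 (adjusted p = 0.00214) for Gas6. Slc10a2, the ileal bile acid carrier, and Slc30a3, a zinc carrier, were highest in VOM at 52 h, with group means of 159.7 and 69.6 CPM against 19.2 and 7.38 CPM at 96 h. Without VOM their log2 fold changes were -0.58 (adjusted p = 0.0201) and -0.58 (adjusted p = 0.156). Among the higher DEGs, Lpin1, which makes diacylglycerol, had a higher mean in 5 of 6 groups (log2 fold change 1.14, adjusted p = 0.00443; without VOM 0.80, adjusted p = 0.0388), and Cdkn1a, which encodes the cell cycle inhibitor p21, had a log2 fold change of 1.02 (adjusted p = 0.045). With mix the sign of Cdkn1a changed (-0.17 ± 0.52, SE, adjusted p = 1).

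Over all genes tested 3.56% rose and 4.5% fell, so a single member that passed in one of the following short lists is no result about that list. Of 10 pericentral genes Cyp1a2 rose, and of 12 hepatocyte markers Cps1, which did not pass without VOM. Neither of the 2 measured cholangiocyte markers passed with all libraries (0 at an unadjusted p under 0.05 and 0 by DESeq2). Of 19 clock output genes Lpin1, Pnpla2 (a triglyceride lipase) and Cdkn1a rose. Of 13 targets of Nrf2 Gstm1 and Gstm3 rose and Gsta1, which is among the 36 genes of the VOM libraries at 52 h, fell. Of 13 genes of iron and BMP signalling Hamp2 rose and Tfr2, the iron sensor, fell (log2 fold change -0.22, adjusted p = 0.0238), and neither passed without VOM. Of 10 periportal genes Cyp2f2 rose and Apoa4, an apolipoprotein, fell (log2 fold change -0.68, adjusted p = 0.0107; without VOM -0.69, adjusted p = 0.0388). Of 5 erythroid genes Hba-a1, a hemoglobin chain with a near-identical copy, rose and Alas2, of heme synthesis, fell, and their changes were 1.17 (adjusted p = 0.0821) and -0.27 (adjusted p = 0.127) without VOM. Of 14 male-biased genes C6 fell, and of 16 female-biased genes Cyp3a16, another of the 36 genes, fell, and neither passed without VOM.

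The number of DEGs differed widely between the age and sex groups. YF had 18 higher (0.163% of the genes tested) and 35 lower DEGs (0.317%), and OF had 80 (0.724%) and 58 (0.525%). In VOF there were 517 higher (4.68%) and 341 lower (3.09%). Among males, YM had 108 (0.978%) and 88 (0.797%), OM had 22 (0.199%) and 19 (0.172%), and VOM had 786 (7.12%) and 970 (8.78%). All 6 YF libraries, 2 of 3 VOF libraries at 52 h and all 3 at 96 h, and all 3 VOM libraries at 52 h came from mixes that held no sham library of the other time. For these groups the effect of time cannot be told apart from that of mix. Differences between sexes rest in part on them. Of the groups in the very old minus young difference (VOF, VOM, YF and YM), only YM is not among them. In females alone that difference is VOF minus YF and rests on them wholly. Mix was not part of the models of differences between groups or operations. The change differed among the 6 groups for 4403 genes (39.9%). Females and males differed at least 2-fold at 131 genes with a higher (1.19%) and 102 with a lower (0.923%) log2 fold change in females, and at 23 and 52 with young and old groups only. Very old minus young mice, 339 were higher (3.07%) and 245 lower (2.22%), and 419 and 259 in females alone. Hamp2 (very old minus young 2.53, adjusted p = 2.29e-05) and the Kupffer cell markers C1qa (1.66, 8.55e-04) and Vsig4 (1.41, 0.00807) were among those that rose more in the very old, and in females alone C1qa had 1.40 (adjusted p = 0.0108) and Vsig4 0.73 (adjusted p = 0.244).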

How the data were processed

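RNA of isolated hepatocytes was measured by 3' end sequencing with unique molecular identifiers. The deposited values are estimated counts of transcripts, not scaled for library size, which the authors made with the celseq2 pipeline on GRCm38, corrected for the 4096 possible identifiers and passed through ComBat-Seq batch correction; the batch variable, and the threshold of their filter on low genes, are not given in the sources used here. The submitters' processing notes name GRCh38 and bcl2fastq 2.20. Batch-corrected values can carry less variation than the reads, which can make p-values too small. Values were rounded to whole numbers (8078 sham values were not whole). Of 11049 genes, 11047 that reached 0.5 CPM in 1 or more of the 36 libraries were tested with edgeR 4.0.16 (R 4.3.3), by the quasi-likelihood test with TMM factors and the age and sex group as blocking factor. Passed means an adjusted p under 0.1 (Benjamini-Hochberg), and DEGs also changed at least 2-fold, as in the study's default settings. CPM levels use TMM factors. Differences between sexes, ages and operations were tested as interaction terms. On simulated counts with 200 of 11046 genes changed, 98% of 2-fold and 100% of 4-fold changes were recovered, and 22 unchanged genes were called. The changed genes all had a mean of at least 10 CPM, and no effect of mix was simulated. Recovery for genes of lower level or with mixes that differ was not tested.

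Named genes were, in each direction, up to 12 DEGs of largest change with a mean of at least 10 CPM, a known name and 1 sign in all 6 groups, all core clock genes, up to 4 passed members of smallest p of each other list, and up to 5 DEGs of smallest p per interaction. Other genes were named after their values were seen. The comparison, members and lists were chosen with earlier results of these data known. Alternatives were DESeq2 1.42.0, RLE size factors, other thresholds and filters, mix as a covariate, replicate numbers as a block, all sham libraries, and leaving out libraries or groups. Results without VOM that also change the tool or add mix, and those for sexes, ages and PH, were chosen after seeing the data. The count for fatty acid oxidation genes without VOM is not reported here. Promoters were read from RefSeq (GRCm38.p6) and gene positions from GENCODE vM21.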

Additional observations from a re-analysis of the deposited data

Results flagged for a closer look

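The change from 52 h to 96 h differed between females and males by an interaction term. The difference in log2 fold change, females minus males, was 1.10 for Isyna1, -1.92 for Per2, -1.88 for Dbp, -1.22 for Tef, 1.25 for Nfil3, -2.74 for Ciart, -1.07 for Lpin1, 1.64 for Cdkn1a and 1.55 for E2f1. For genes among the 36 that the VOM libraries at 52 h held in excess, it was 3.35 for Gsta1, 4.20 for Cyp3a16, 4.80 for Rdm1, 5.23 for Zfp398, 4.79 for Afmid, 5.61 for Kcna2, 5.02 for Pde4a and 4.74 for Cyp2a5. With young and old groups only, a fit chosen after seeing the data like the other fits without VOM here, 0 of the 9 genes outside those 36 passed by edgeR.

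The change differed between very old and young mice in the same way. Very old minus young, the difference was 2.18 for H2-Aa, 2.66 for H2-Ab1, -1.35 for Slc30a3, 1.80 for Oasl2, 1.35 for Gbp2, 1.01 for Asl, 2.53 for Hamp2, 1.66 for C1qa, 1.23 for C1qc, 1.41 for Vsig4, -1.04 for Alas2 and -1.05 for Hsd3b3. For genes among the 36 that the VOM libraries at 52 h held in excess, it was -5.57 for Gsta1, -5.17 for Cyp3a16, -7.65 for Rdm1, -5.86 for Zfp398, -6.65 for Afmid, -8.08 for Kcna2, -7.91 for Pde4a and -6.77 for Cyp2a5. In females only, H2-Ab1, Oasl2, Hamp2, C1qa and C1qc passed with the same sign. That fit is VOF minus YF, and in both groups time and mix cannot be told apart.

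The change also differed between the operations. Sham minus PH, the difference was -2.11 for Derl3, -1.67 for Isyna1, -1.13 for Gas6, 2.52 for Npas2, -1.16 for Dbp, 1.28 for Cdkn1a, -1.73 for Saa2, -1.54 for Hspa1b, -1.02 for Gstm1, -1.22 for Gstm3, -2.54 for Ifit1, -1.20 for Oasl2, -1.52 for Irf7, -1.02 for Gbp2, -1.21 for C2, -1.31 for Nat8f1, -1.84 for Apol9b, -1.26 for Otc and -1.73 for Hsd3b3. For genes among the 36 that the VOM libraries at 52 h held in excess, it was -7.21 for Gsta1, -3.28 for Afmid and -3.51 for Pde4a. Without VOM, Derl3, Isyna1, Gas6, Npas2, Dbp, Cdkn1a, Saa2, Hspa1b, Gstm1, Ifit1, Irf7, Gbp2, C2, Nat8f1, Apol9b, Otc and Hsd3b3 passed with the same sign.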

How the results depend on the processing

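The counts of genes rested most on the mixes. With mix as a covariate 1 gene rose and 0 fell (1 and 0 DEGs), and the same counts were found without VOM and with mix. In the 15 libraries of mixes that held both times 0 rose and 1 fell (0 and 1 DEGs), with 532 genes at an unadjusted p under 0.05. These fits have fewer degrees of freedom, and how far mix accounts for the counts was not tested.

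Against 34 higher and 62 lower DEGs, an adjusted p under 0.05 with no fold minimum gave 236 and 307, and DESeq2 gave 20 lower. Without VOM 26 were lower by edgeR and 13 by DESeq2. Higher DEGs were 67 without OF, 18 without VOF and 58 without YM. Against 393 genes that rose and 497 that fell, 599 rose with all sham libraries, and 317 fell without VOM (279 by DESeq2). Leaving out 1 library at a time gave 25 to 46 higher and 46 to 78 lower DEGs, and 317 to 454 genes that rose and 383 to 557 that fell. Replicate numbers did not pair the libraries (5 of 18 pairs correlated above 0.1, from -0.338 to 0.275), and a replicate block gave 35 lower DEGs, 173 genes that rose and 236 that fell.

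With no fold minimum PH counts were 1701 and 1644, sham minus PH 585 and 904, sexes 238 and 227, and ages 474 lower. With young and old groups only the sexes differed at 23 and 52. Within groups DESeq2 gave 11 higher in YF, 53 and 38 in OF, 69 and 56 in YM, and 4 and 11 in OM. A model of the 6 libraries of a group gave 5 and 7 in YF, 51 and 35 in YM, and 14 higher in OM. Without 1 library, higher and lower DEGs ran from 7 to 39 and 8 to 71 in YF, 33 to 69 and 32 to 42 in OF, 436 to 537 and 295 to 348 in VOF, 31 to 129 and 24 to 89 in YM, 4 to 25 and 1 to 18 in OM, and 587 to 805 and 869 to 943 in VOM. The lowest counts came without YF 96 h replicates 1 and 3, YM 52 h replicate 3 and OM 52 h replicate 2.

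The sign turned for 4 of the named genes that passed with all libraries. Cdkn1a had a log2 fold change of -0.17 with mix, -0.13 in the 15 libraries and -0.36 without VOM and with mix, and Hba-a1 had -0.37 in the 15 libraries. Gsta1 had 0.0657 without VOM by edgeR and 0.13 by DESeq2, and E2f1 had 0.0181 without VOM by DESeq2. The cause was not tested. With RLE size factors or other filters on low counts none of the named genes that had passed turned. Shallow libraries (from 465547 counts) limit genes of a few CPM or less, such as Npas2, Mki67 and Aurkb.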
